A study of Mus musculus with 17 samples.

Results

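Cells of a podocyte line grown on a surface with fractal relief (HF) were compared with the same cells grown on a flat surface (NT), and all 6 HF and all 5 NT libraries, 11 of the 17 in the study, were taken by their labels. Every gene that passed a filter on low counts entered the comparison, 15196 in all, and each difference is HF minus NT. The cells are E11, a mouse line labelled as podocytes, on polydimethylsiloxane (PDMS), a silicone elastomer. The HF relief was derived from tracings of glomeruli in healthy histology, and NT carries no relief. Another group with a round relief that is not fractal (RT, n = 6) shared the fit and is quoted only beside single genes. All groups share this 1 line, and no other genotype, treatment or time in culture is given. The labels do not say whether replicates are separate cultures, so a p-value here weighs a difference against library-to-library spread, part of which may be technical. Total counts ran from 14.9 to 18.6 M in NT and from 16.2 to 17.8 M in HF.

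Podocytes are the epithelial cells that wrap the capillaries of the kidney filter. They reach over the vessel wall with actin-rich foot processes, join them by slit diaphragms, and stand on a basement membrane that they help to build. Integrins, growth factor receptors and guidance cues are among the systems through which such cells read their surroundings.

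The line held part of the podocyte programme. Of 40 podocyte genes listed, 32 passed the filter, among them Wt1, Podxl and Synpo. Of 10 immune markers, 6 had no count in any NT or HF library, among them Ptprc, and 3 were tested. The most abundant was Csf1r, the receptor of a macrophage growth factor, at means of 39.4 CPM on NT and 45.8 CPM on HF. The 3 tested summed to 38.6 to 44.0 CPM in NT and 41.6 to 55.8 CPM in HF, and 0 were called by edgeR, with 1 at an unadjusted p under 0.05, 0 called by DESeq2 and 0 by limma voom. Of 10 endothelial markers, 2 had no count in any NT or HF library and 2 were tested, the higher of them Ehd3 at means of 76.4 CPM on NT and 77.5 CPM on HF. Of 12 tubule markers, 2 had no count in any NT or HF library and 6 were tested. The highest was Cdh16, at means of 977 CPM on NT and 976 CPM on HF. Of the 6 tubule markers tested, 0 passed the threshold by edgeR, with 1 at an unadjusted p under 0.05, 0 called by DESeq2 and 0 by limma voom. Their summed level overlapped between NT (1425 to 1783 CPM) and HF (1466 to 1816 CPM). The share of mitochondrially encoded counts ran from 2.12% to 2.47% in NT and from 2.14% to 2.24% in HF. Ptprc and the other markers quoted here were chosen after their values were seen.

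Changes reached from the rarest to the most abundant transcripts, and they were denser and smaller among abundant ones. A gene was called when its adjusted p was below 0.05, which held for 354 of 15196 genes (2.33%), 228 higher (1.5%) and 126 lower (0.829%) on HF. Genes were sorted by average level in log2 CPM (counts scaled to 1 M per library), a scale that does not correct for gene length. Among 2881 genes under 1, which is 2 CPM, 10 rose and 3 fell (0.451% called). Among 3681 genes between 1 and 4, up to 16 CPM, 55 rose and 17 fell (1.96%). Among 6760 genes between 4 and 7, up to 128 CPM, 108 rose and 55 fell (2.41%). Among the 1874 genes at 7 and over, 55 rose and 51 fell (5.66%), so that rises and falls were nearly equal in number there. The median absolute log2 change of the called genes went from 1.55 in the lowest class through 0.58 and 0.24 to 0.17 in the highest. No called gene of the highest class reached 1.5-fold, and the extremes there were 0.58 and -0.32 on the log2 scale. The median standard error over all genes of a class went from 0.32 through 0.13 and 0.05 to 0.04, so the test resolved much smaller changes in the highest class, which held 61.2% of the counts. By the raw values, HF and NT did not overlap in 332 genes (2.18%), with all HF libraries above in 190 (1.25%) and below in 142 (0.934%), and 173 of the 332 were among the called genes. Which libraries enter moves the number called. With NT 3 left out it was 202, with HF 4 left out 203 and with NT 5 left out 604.

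**Figure D1:**
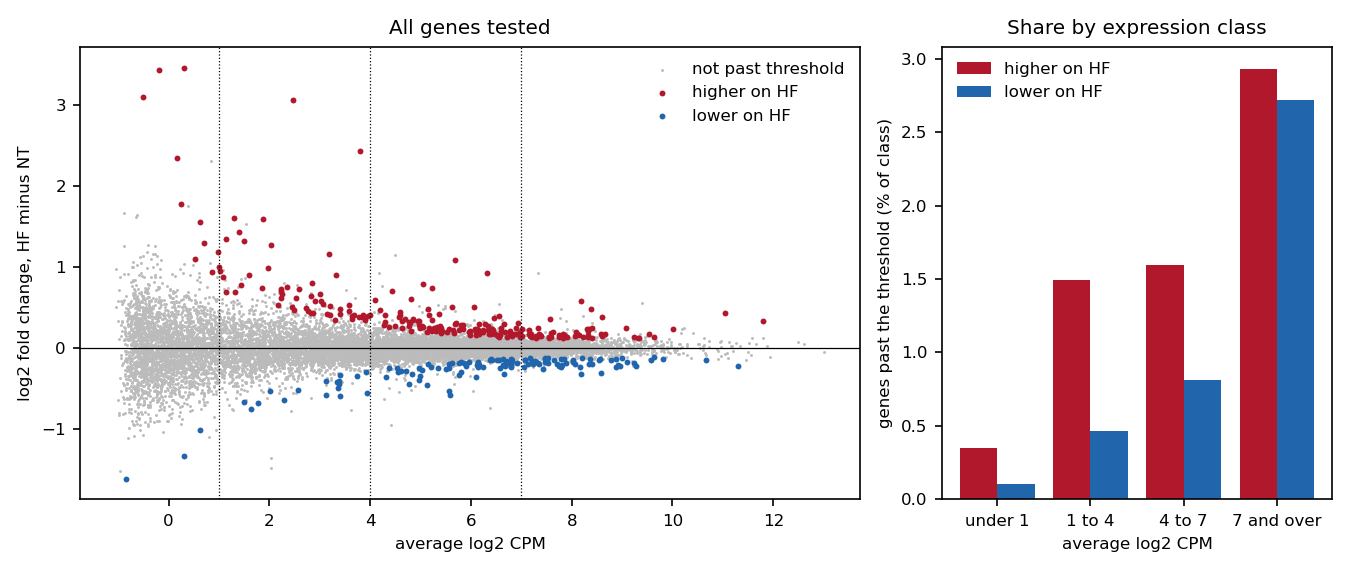
Left, log2 fold change (HF minus NT) against average log2 CPM for each gene tested, with called genes in red (higher on HF) and blue (lower) and dotted lines at the class bounds. Right, percent of the genes of each class that were higher or lower on HF. Called changes narrow toward zero as expression rises, while the share called goes up from 0.451% to 5.66%.

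Among the abundant genes, those at 7 and over, the rises with the smallest p included Hexa, Sytl2, Amot and Sh3bp4. Hexa, the alpha subunit of the lysosomal enzyme beta-hexosaminidase A, stood at 139.5, 152, 145, 144 and 155 CPM in the 5 NT libraries and at 166 to 185 CPM (median 174) in HF. Every HF library exceeded every NT library, and the log2 change was 0.25 ± 0.04 (SE, adjusted p = 9.67e-05). Exons of another gene overlap 12.8% of Hexa, and reads of the 2 cannot be told apart without strand. Sytl2, a Rab27 effector of vesicle exocytosis, read 287, 325, 318, 300.2 and 289 CPM on NT and 349.9 to 374 CPM (median 359) on HF, a rise of 0.24 ± 0.04 (SE, adjusted p = 0.000101). Amot (angiomotin, a junctional and actin-bound scaffold that binds YAP) went from 302, 313, 307, 287 and 261 CPM to 325 to 363 CPM (median 349.7), or 0.24 ± 0.04 (SE, adjusted p = 0.000738). In both genes every HF library was the higher. Sh3bp4, a regulator of receptor endocytosis, rose by 0.18 ± 0.04 (SE, adjusted p = 0.00311), with NT at 136, 139, 129, 143 and 132 CPM and HF at 142 to 159 CPM (median 155). Its groups overlapped, because HF 2 lay within the NT range.

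The falls with the smallest p in this class were in genes of varied function. Lsp1, an F-actin binding protein best known from leukocytes, read 428, 432, 415, 449 and 474 CPM on NT and 337 to 383 CPM (median 353) on HF, a log2 change of -0.31 ± 0.04 (SE, adjusted p = 6.34e-06). Ncam1, the neural cell adhesion molecule, stood at 298, 311, 310.3, 313 and 319 CPM against 257 to 279 CPM (median 263), a change of -0.23 ± 0.03 (SE, adjusted p = 2.53e-05). No HF library of either gene reached the lowest NT library. Ncam1 is also 1 of 8 tested markers of parietal epithelium, the flat cells lining the glomerular capsule, whose summed level was 2304, 2506, 2465, 2489.6 and 2405 CPM in NT and 2271 to 2349 CPM (median 2308) in HF. Of the 8, 4 had an unadjusted p under 0.05 and Ncam1 was the 1 called. The log2 change was positive in 3 and negative in 5. Prom1 was among the positive, at means of 0.198 CPM on NT and 0.612 CPM on HF, as was Cd44, at 61.6 and 65.1 CPM. The most abundant was Cd24a, at means of 805 CPM on NT and 758 CPM on HF, and Pax2, Pax8 and Cdh6 each stood at a mean above 300 CPM on both surfaces. Of the 3 markers not tested, Krt18 had no count in any NT or HF library. These markers were also chosen after their values were seen. Nr2f2 (COUP-TFII, a nuclear receptor) stood at 246, 242, 249.6, 250.1 and 247 CPM in NT and 202 to 226 CPM (median 213) in HF, a change of -0.21 ± 0.03 (SE, adjusted p = 0.000208). Reep5, which shapes endoplasmic reticulum tubules, changed by -0.22 ± 0.03 (SE, adjusted p = 0.000132), and C4bp (C4b-binding protein, a complement inhibitor) by -0.23 ± 0.04 (SE, adjusted p = 0.000208). The HF libraries of Nr2f2, Reep5 and C4bp all lay below the NT libraries. Fth1, the heavy chain of the iron store ferritin, chosen after its values were seen, fell from 2770.1, 2836, 2904, 2815 and 3012 CPM to 2297 to 2629 CPM (median 2468), or -0.22 ± 0.04 (SE, adjusted p = 0.00184). None of its HF libraries reached the NT range.

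**Figure D2:**
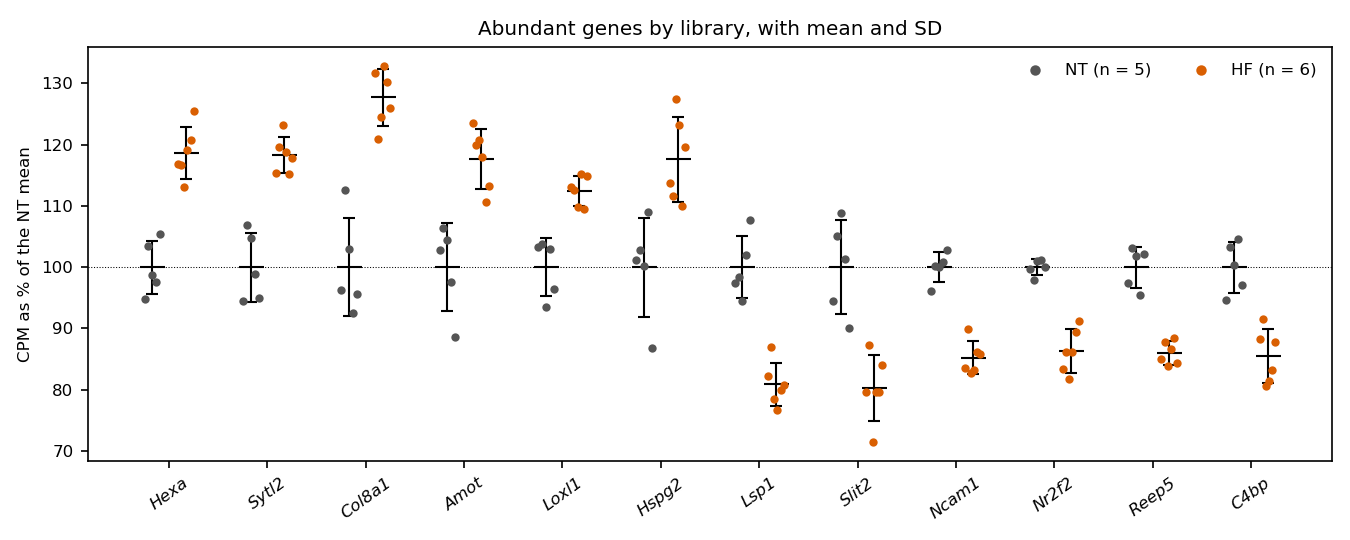
CPM of each library as a percent of the NT mean for 12 abundant genes, with NT libraries in grey (n = 5), HF libraries in orange (n = 6), and bars for the mean and SD. HF points sit above every NT point for the genes on the left from Hexa to Hspg2 and below every NT point from Lsp1 to C4bp.

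At intermediate levels, between 4 and 7, the genes with the smallest p included Cdsn, Agt and Ccl7 among the rises and Hoxd8 among the falls. Cdsn (corneodesmosin, an adhesion protein of the epidermis) read 25.1, 19.4, 17.7, 17.8 and 18.4 CPM on NT and 26.5 to 35.0 CPM (median 29.6) on HF, a rise of 0.61 ± 0.08 (SE, adjusted p = 2.40e-05). Agt (angiotensinogen, from which renin releases angiotensin I) went from 55.7, 53.8, 55.2, 59.9 and 63.7 CPM to 72.9 to 92.1 CPM (median 81.7), a rise of 0.50 ± 0.06 (SE, adjusted p = 9.67e-05). Ccl7, a monocyte chemokine, stood at 11.1, 15.0, 13.2, 12.8 and 13.7 CPM on NT and 18.3 to 21.0 CPM (median 19.8) on HF, a change of 0.59 ± 0.09 (SE, adjusted p = 0.000125). HF and NT did not overlap in these 3 genes. Flcn (folliculin, a regulator of mTORC1 signalling at the lysosome) rose by 0.23 ± 0.03 (SE, adjusted p = 0.000130) and Slc43a2, an amino acid transporter, by 0.47 ± 0.07 (SE, adjusted p = 0.000208), again without overlap. Hoxd8, a homeobox factor of body patterning, changed by -0.30 ± 0.04 (SE, adjusted p = 0.000125), with NT at 62.5, 62.2, 63.6, 56.7 and 62.2 CPM and HF at 48.1 to 52.2 CPM (median 49.4). Peg13, an imprinted noncoding RNA, changed by -0.23 ± 0.04 (SE, adjusted p = 0.000884) and Sptssa, a subunit of the enzyme that starts sphingolipid synthesis, by -0.23 ± 0.04 (SE, adjusted p = 0.00104). Hoxd8, Peg13 and Sptssa all had their HF libraries below the NT libraries.

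Called changes were larger among rare transcripts, on far fewer reads. The smallest absolute log2 change called was 0.94 in the lowest class and 0.12 in the highest. Plin4 (perilipin 4, a lipid droplet coat protein) rose from 5.75, 5.82, 6.92, 4.65 and 5.38 CPM to 8.34 to 10.8 CPM (median 8.60), or 0.66 ± 0.10 (SE, adjusted p = 0.000214). Kif12, a kinesin of kidney epithelium, went from 3.71, 5.48, 4.78, 3.00 and 5.04 CPM to 8.05 to 12.9 CPM (median 9.50), a rise of 1.16 ± 0.17 (SE, adjusted p = 0.000313). Slc4a11, a membrane transporter mutated in corneal dystrophy, rose by 0.90 ± 0.14 (SE, adjusted p = 0.000490) and Gpnmb, a lysosome-linked glycoprotein, by 0.99 ± 0.17 (SE, adjusted p = 0.000592). In these 4 genes the groups did not overlap. Under 2 CPM, Sel1l3 rose from 0.0618, 0.203, 0.107, 0.118 and 0.232 CPM to 1.18 to 2.63 CPM (median 1.30), a change of 3.46 ± 0.41 (SE, adjusted p = 6.34e-06), and all HF libraries lay above NT. Galnt3, a starter of mucin-type O-glycans, changed by 1.55 ± 0.32 (SE, adjusted p = 0.00500) and Sigirr, an inhibitor of interleukin-1 receptor signalling, by 1.19 ± 0.26 (SE, adjusted p = 0.00831). Galnt3 overlapped between the groups and Sigirr did not. Ugt1a2 (a glucuronidating enzyme, 2.34 ± 0.45 (SE, adjusted p = 0.00303)) shares 62.9% of its 100-base sequence windows with other genes of its locus and is uncertain, and the pseudogene Cyp2d37-ps changed by 3.43 ± 0.53 (SE, adjusted p = 0.000166).

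Sorted by function, 39 gene lists covered signalling, matrix, adhesion, cytoskeleton, immune response, growth and metabolism. Against the background of 1.5% higher and 0.829% lower over all genes, calls were most frequent among ERK feedback genes on the higher side, 4 of 16, and among interferon response genes on the lower side, 8 of 56. The lists were chosen with earlier results of these data known, so a share above the background is not a test. The same background stands beside every list count given below. The background is also not matched for expression level, with 0.451% of genes called in the lowest class and 5.66% in the highest. Heat shock and proteasome genes (43 tested), glycolysis and hypoxia genes (35) and Wnt genes (36) held 0 calls by edgeR, with 3, 7 and 10 members at an unadjusted p under 0.05. By DESeq2 these lists held 0, 0 and 1 calls, and by limma voom 0, 0 and 0.

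**Figure D3:**
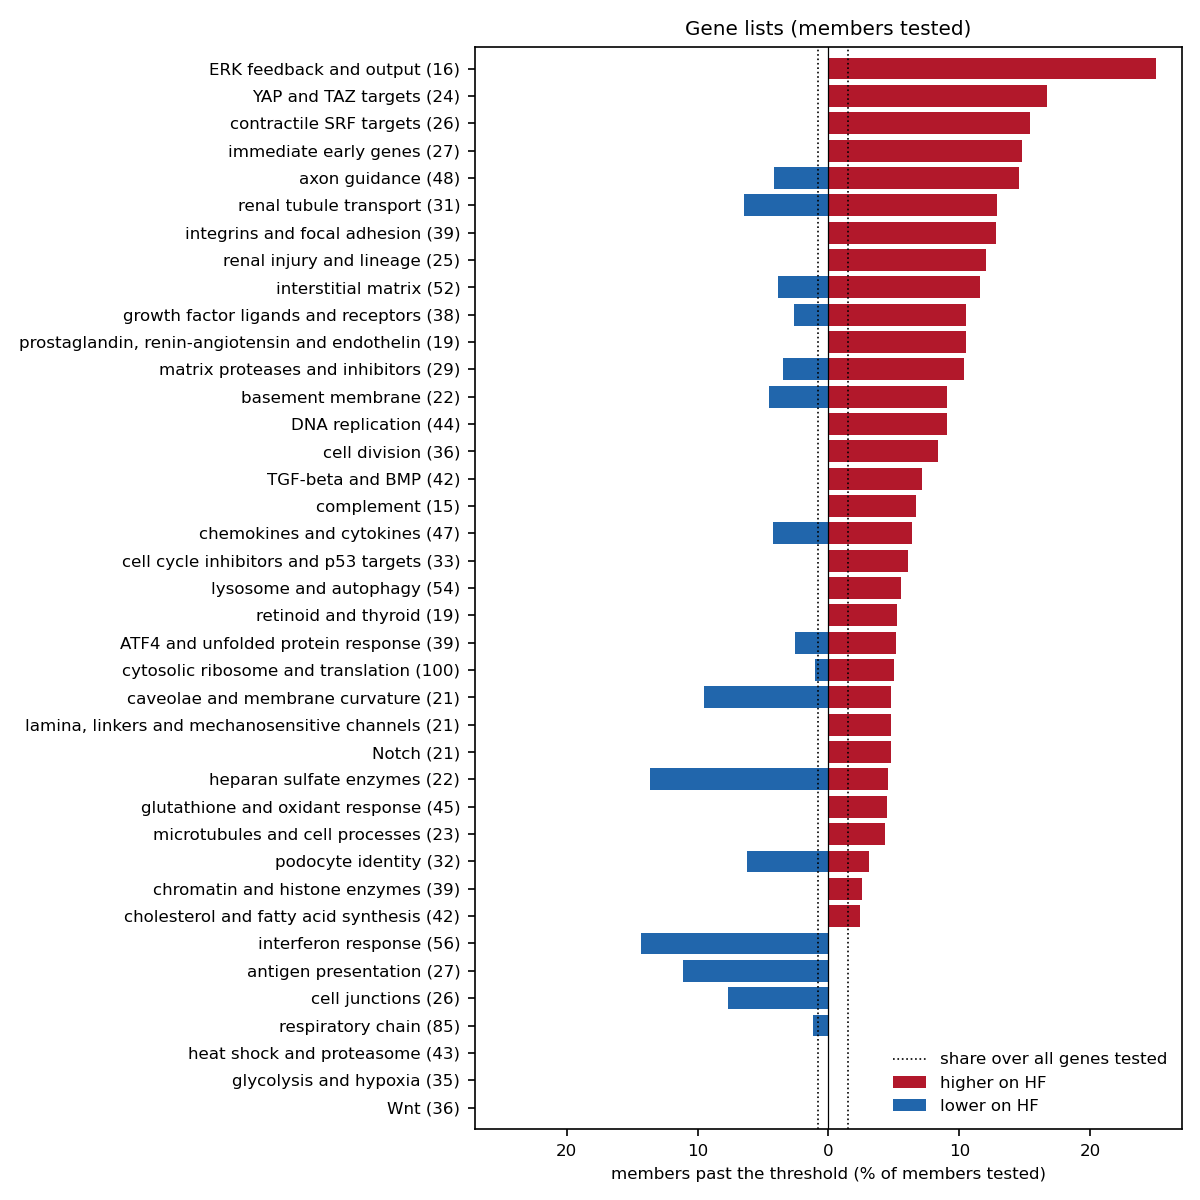
Percent of the tested members of each gene list that were called higher on HF (red, to the right) or lower (blue, to the left), with the number tested in brackets. Dotted lines mark the shares over all genes tested, 1.5% and 0.829%, and the longest red bar is that of the ERK feedback list with 4 of 16 members. The lines are not matched for expression level, and the lists were chosen with earlier results of these data known.

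Guidance genes changed in both directions. Semaphorins and their plexin receptors, slits, netrins and ephrins steer growing axons and also cell shape and vessel growth. Of 48 tested, 7 rose and 2 fell, and their median log2 change was 0.0015, beside -0.0025 over all genes. Plxnd1, a semaphorin receptor, read 69.8, 62.8, 67.3, 64.4 and 67.0 CPM on NT and 74.5 to 87.6 CPM (median 81.6) on HF, a rise of 0.30 ± 0.04 (SE, adjusted p = 9.67e-05). Sema7a, a membrane-anchored semaphorin, went from 32.2, 33.6, 28.1, 32.9 and 32.9 CPM to 38.5 to 52.6 CPM (median 41.3), a rise of 0.42 ± 0.07 (SE, adjusted p = 0.000387). Every HF library of both genes lay above NT. Slit2, the ligand of Robo receptors, fell from 313, 348, 361, 336 and 298 CPM to 237 to 289 CPM (median 264), a change of -0.32 ± 0.05 (SE, adjusted p = 0.000126), and no HF library reached the NT range. Srgap1, an intracellular partner of Robo receptors, rose by 0.22 ± 0.05 (SE, adjusted p = 0.0164), and its call was lost without NT 2 or NT 3 (adjusted p then 0.0515 and 0.0615). Sema3f, a secreted semaphorin, fell by 0.13 ± 0.03 (SE, adjusted p = 0.0164), a call lost without NT 4 (adjusted p then 0.0514). The remaining rises were Epha2, given below, Unc5b (a netrin receptor), Sema5a and Epha4. Unc5b changed by 0.14 ± 0.04 (SE, adjusted p = 0.0307) and missed the threshold without any 1 of NT 3, HF 1, HF 3, HF 4 or HF 6 (then adjusted p 0.0532 to 0.106). Sema5a, at 0.93 ± 0.22 (SE, adjusted p = 0.0417), lost its call without any 1 of NT 1, NT 3, NT 4, NT 5, HF 1, HF 2, HF 3, HF 4 or HF 5 (then adjusted p 0.0556 to 0.115). Epha4, at 0.24 ± 0.06 (SE, adjusted p = 0.0433), lost it without any 1 of NT 1, NT 3, NT 4, NT 5, HF 1, HF 3, HF 4 or HF 5 (then adjusted p 0.0519 to 0.101). Srgap1, Sema3f, Unc5b, Sema5a and Epha4 were chosen after their values were seen. Leaving out NT 3 took the list to 5 calls.

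ERK feedback genes had positive changes throughout. ERK kinases carry growth factor signals, and Dusp and Spry family proteins are induced by ERK and restrain it. All 16 tested members had a positive log2 change, with a median of 0.22, and 4 were called. Dusp6, a phosphatase that inactivates ERK, read 17.5, 19.4, 21.9, 22.9 and 24.4 CPM on NT and 30.0 to 45.3 CPM (median 36.4) on HF, a rise of 0.79 ± 0.10 (SE, adjusted p = 0.000360). Errfi1, an inhibitor of ErbB receptors, went from 63.2, 65.1, 68.3, 64.0 and 66.6 CPM to 69.2 to 79.9 CPM (median 77.0), or 0.21 ± 0.04 (SE, adjusted p = 0.00524). HF and NT did not overlap in either gene. Epha2, an ephrin receptor and ERK target, rose by 0.23 ± 0.05 (SE, adjusted p = 0.0113), with the lowest HF library inside the NT range. Etv5, an ETS factor, changed by 0.62 ± 0.17 (SE, adjusted p = 0.0387) and lost its call without any 1 of NT 2, NT 3, NT 4, NT 5, HF 2, HF 3, HF 4 or HF 5 (then adjusted p 0.0578 to 0.119), and 17.2% of its windows occur in other genes. Of the immediate early genes, transcribed within minutes of a stimulus, 4 of 27 rose and 0 fell. Their summed level was 982, 1078, 1132, 1190.0 and 1243 CPM in NT 1 to NT 5 and 1147, 1229, 1400.5, 1456, 1488 and 1499 CPM in HF 1 to HF 6. HF 1 and HF 2 lay within the NT range. The sum was lowest in the library numbered 1 of NT, HF and RT alike and followed the numbers throughout NT and HF. Dusp6 also climbed with the number in NT. What the numbers stand for is not given, and their part in this sum was not tested. Maff, a small Maf factor, rose by 0.46 ± 0.10 (SE, adjusted p = 0.00592) and Ier5 by 0.22 ± 0.05 (SE, adjusted p = 0.00592), while HF and NT stayed apart in both. With the number added to the fit as a block, Dusp6, Errfi1, Epha2, Etv5, Maff and Ier5 kept their calls.

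Among growth factors and their receptors 4 of 38 rose and 1 fell. Gdnf, the ligand of Ret that drives ureteric budding, went from 4.33, 3.86, 5.10, 3.88 and 5.50 CPM to 6.03 to 7.96 CPM (median 7.02), a rise of 0.62 ± 0.12 (SE, adjusted p = 0.00344). All HF libraries lay above NT. Igf2r, which clears IGF2 and sorts lysosomal enzymes, rose from 98.9, 99.8, 90.1, 93.1 and 82.7 CPM to 105 to 109 CPM (median 107), or 0.20 ± 0.04 (SE, adjusted p = 0.00253), again without overlap. Angpt1, a podocyte ligand of the endothelial receptor Tie2, fell from 64.8, 67.8, 65.7, 62.6 and 55.9 CPM to 46.0 to 56.2 CPM (median 50.6), a change of -0.33 ± 0.06 (SE, adjusted p = 0.00210). Its highest HF library passed the lowest NT library, and exons of another gene overlap 14.2% of it. The ErbB ligands Nrg1 and Tgfa were higher with overlapping groups. Nrg1 (neuregulin 1) changed by 0.30 ± 0.07 (SE, adjusted p = 0.0262) and missed the threshold without NT 3, HF 3 or HF 4 (adjusted p then 0.0757, 0.0608 and 0.0669). Tgfa, chosen after its values were seen, changed by 0.76 ± 0.19 (SE, adjusted p = 0.0327) and missed the threshold without any 1 of NT 1, NT 3, NT 4, NT 5, HF 1, HF 3 or HF 4 (then adjusted p 0.0618 to 0.105).

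Some secreted factors of the TGF-beta family and of vascular tone rose, while no receptor, inhibitor, target or Smad listed for the family was called. Of 10 TGF-beta and BMP ligands 3 rose, while 0 of 16 receptors and inhibitors and 0 of 16 targets and Smads were called by edgeR, with 1 of each at an unadjusted p under 0.05. By DESeq2 the counts were 0 and 0, and by limma voom 0 and 0. Bmp6 read 75.0, 88.7, 87.4, 84.2 and 82.8 CPM on NT and 93.4 to 115 CPM (median 103) on HF, a rise of 0.29 ± 0.05 (SE, adjusted p = 0.000490), and the groups stood apart. Tgfb2, at 0.20 ± 0.05 (SE, adjusted p = 0.0236), missed the threshold without any 1 of NT 1, NT 3, HF 3, HF 4 or HF 5 (then adjusted p 0.0558 to 0.0868). Gdf15, a stress-induced member of the family, rose by 0.25 ± 0.06 (SE, adjusted p = 0.0238) and missed the threshold without any 1 of NT 2, HF 3, HF 4 or HF 5 (then adjusted p 0.0528 to 0.0753). Tgfb1 did not pass, at 0.21 ± 0.06 (SE, adjusted p = 0.0591), and passed without HF 2 (adjusted p then 0.0355). It also passed by DESeq2 (adjusted p = 0.0279) and with the replicate number as a block in the edgeR fit (adjusted p = 0.0497). Edn1 (endothelin 1, a vasoconstrictor that acts on podocytes and mesangium) rose from 26.6, 24.3, 29.1, 28.6 and 32.0 CPM to 32.5 to 38.9 CPM (median 35.4), or 0.34 ± 0.07 (SE, adjusted p = 0.00377). With Agt it was 1 of 2 rises among 10 vasoactive genes tested, and both genes had all HF libraries above NT.

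**Figure D4:**
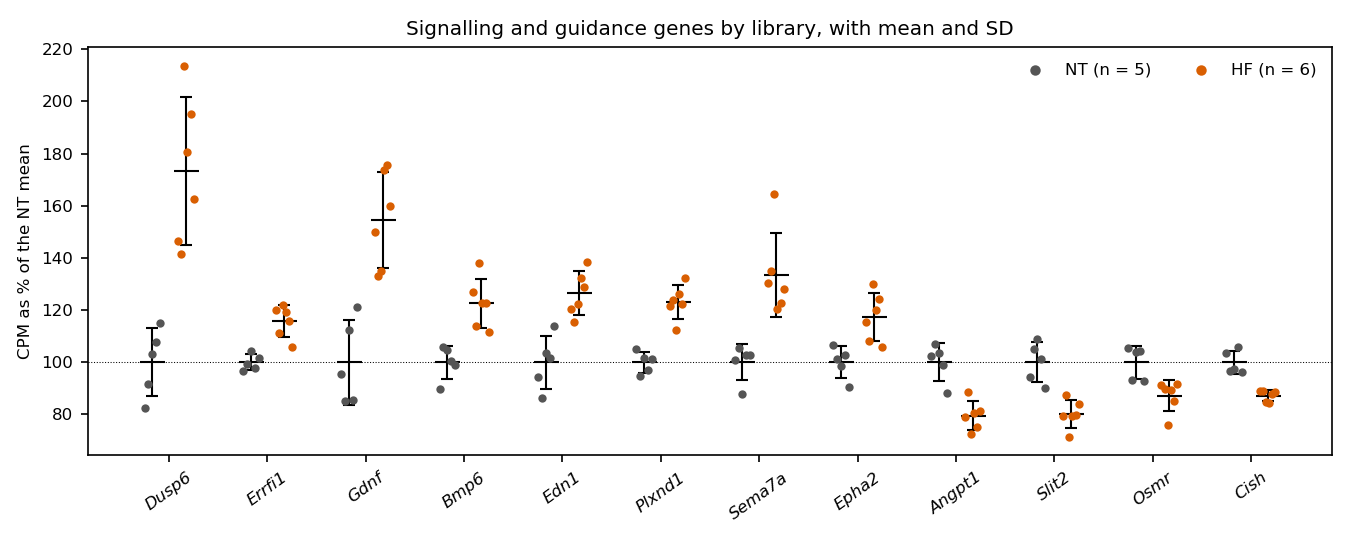
CPM of each library as a percent of the NT mean for 12 signalling and guidance genes, with NT in grey (n = 5), HF in orange (n = 6), and bars for the mean and SD. Dusp6 spreads widest on HF, from 30.0 to 45.3 CPM, and Angpt1, Slit2, Osmr and Cish sit below the NT mean in every HF library.

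Matrix genes rose more often than they fell. In the interstitial matrix list 6 of 52 rose and 2 fell, among 22 basement membrane genes 2 rose and 1 fell, and among proteases and inhibitors 3 of 29 rose and 1 fell. Col8a1, a short-chain collagen, read 157, 184, 168, 151 and 156 CPM on NT and 197 to 217 CPM (median 209) on HF, a rise of 0.35 ± 0.05 (SE, adjusted p = 0.000130). Loxl1, which crosslinks elastin, went from 383, 385, 346, 382 and 358 CPM to 406 to 427 CPM (median 418), or 0.17 ± 0.03 (SE, adjusted p = 0.00303). Neither gene overlapped between the groups. Fn1 (fibronectin) rose from 3583, 2847, 2683, 2923 and 2656 CPM to 3373 to 4105 CPM (median 3662), or 0.33 ± 0.07 (SE, adjusted p = 0.0144), and NT 1 lay inside the HF range. Hspg2 (perlecan, a heparan sulfate proteoglycan of basement membranes) read 933, 946, 923, 1004 and 800.1 CPM on NT and 1013 to 1174 CPM (median 1075) on HF, a rise of 0.23 ± 0.05 (SE, adjusted p = 0.00435) without overlap. Lama5, a laminin chain of the mature glomerular membrane, rose by 0.24 ± 0.05 (SE, adjusted p = 0.0164) and missed the threshold without NT 3 or NT 5 (adjusted p then 0.0564 and 0.0722). Lama2, a laminin chain of muscle and of mesangium, fell by 0.23 ± 0.06 (SE, adjusted p = 0.0262) and missed the threshold without any 1 of NT 1, NT 2, NT 4, HF 1, HF 3, HF 4 or HF 5 (then adjusted p 0.0530 to 0.0741). Spp1 (osteopontin) changed by 0.43 ± 0.10 (SE, adjusted p = 0.0262), and its call was lost without any 1 of NT 2, HF 1, HF 4 or HF 5 (then adjusted p 0.0530 to 0.0748). Exons of another gene overlap 18.8% of Spp1, and 5.82% of its windows occur in other genes. The falls of the interstitial list were Ltbp4, which tethers latent TGF-beta, at -0.20 ± 0.05 (SE, adjusted p = 0.0201), and Vcan (versican), at -0.26 ± 0.07 (SE, adjusted p = 0.0399). Ltbp4 missed the threshold without NT 2, NT 4 or NT 5 (adjusted p then 0.0625, 0.0650 and 0.0590), and Vcan, chosen after its values were seen, without any 1 of NT 2, NT 3, NT 4, HF 1, HF 3, HF 4 or HF 5 (then adjusted p 0.0740 to 0.105). The interstitial count was 5 without NT 2, NT 3, NT 4, HF 3 or HF 4.

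Enzymes that cut matrix and enzymes that edit its sugars were also among the called genes. Plau (urokinase, which activates plasminogen) stood at 23.9, 33.6, 28.2, 20.6 and 23.6 CPM on NT and 39.0 to 79.0 CPM (median 50.3) on HF, a rise of 1.08 ± 0.22 (SE, adjusted p = 0.0201). All HF libraries were above NT, and the call was lost without NT 4 or HF 4 (adjusted p then 0.0541 and 0.0528). Mmp2, a gelatinase, rose by 0.16 ± 0.04 (SE, adjusted p = 0.0197) and missed the threshold without NT 3 or HF 4 (adjusted p then 0.0940 and 0.0704). Mmp11 changed by 0.16 ± 0.04 (SE, adjusted p = 0.0254) and missed the threshold without any 1 of NT 1, NT 2, NT 3, HF 4 or HF 5 (then adjusted p 0.0533 to 0.0928). Heparan sulfate carries charge in the filter and binds growth factors, and its sulfation pattern is set by sulfotransferases and by the sulfatases Sulf1 and Sulf2. Of 13 sulfation and editing enzymes 3 fell and 1 rose, while 0 of 9 synthesis enzymes were called by edgeR, with 1 at an unadjusted p under 0.05, 0 called by DESeq2 and 0 by limma voom. Ndst3, an N-deacetylase and sulfotransferase, fell from 15.0, 10.97, 11.4, 10.9 and 12.9 CPM to 7.99 to 9.50 CPM (median 8.55), or -0.49 ± 0.09 (SE, adjusted p = 0.00209). Sulf1 went from 10.2, 12.5, 14.1, 12.1 and 12.1 CPM to 7.55 to 9.77 CPM (median 9.14), a log2 change of -0.44 ± 0.11 (SE, adjusted p = 0.0181), which missed the threshold without NT 3 (adjusted p then 0.0864). In both the HF libraries lay below NT. The 2 sulfatases moved in opposite directions, since Sulf2 rose by 0.21 ± 0.05 (SE, adjusted p = 0.0299), a call lost without any 1 of NT 2, NT 3, NT 4, HF 3, HF 4 or HF 5 (then adjusted p 0.0566 to 0.105). Hs6st2, a 6-O-sulfotransferase, fell by 0.14 ± 0.04 (SE, adjusted p = 0.0301) and missed the threshold without any 1 of NT 2, NT 3, NT 4, HF 3, HF 4 or HF 5 (then adjusted p 0.0659 to 0.112).

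A minority of the adhesion and contractile genes were called higher, and Cav1, Cav2, Cdh2 and Cdh11 fell. Cells grip matrix through integrins linked to actin by vinculin and other adaptors, and the factor SRF drives many of these actin genes through CArG boxes. Of 39 integrin and focal adhesion genes 5 rose and 0 fell, with 23 positive and 16 negative log2 changes. Of 26 contractile SRF targets 4 rose and 0 fell, with 24 positive and 2 negative changes and a median of 0.10. Vcl is counted among the rises of both lists. The summed level of the SRF targets was 10688 to 11496 CPM in NT and 11630 to 12442 CPM in HF, without overlap. The promoters of Srf and Vcl, which both rose, are shown from RefSeq (GRCm38.p6) as 250 bases before to 50 after the annotated start, 5′ to 3′, with the CArG matches in capitals.
Srf, chr17:46556113-46556412, minus strand: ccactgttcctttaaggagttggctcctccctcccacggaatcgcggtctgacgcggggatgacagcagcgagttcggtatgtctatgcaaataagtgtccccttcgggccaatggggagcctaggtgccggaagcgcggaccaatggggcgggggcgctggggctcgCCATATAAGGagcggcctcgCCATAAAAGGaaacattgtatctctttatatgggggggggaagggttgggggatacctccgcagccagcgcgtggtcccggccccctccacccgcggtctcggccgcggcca
Vcl, chr14:20929148-20929447, plus strand: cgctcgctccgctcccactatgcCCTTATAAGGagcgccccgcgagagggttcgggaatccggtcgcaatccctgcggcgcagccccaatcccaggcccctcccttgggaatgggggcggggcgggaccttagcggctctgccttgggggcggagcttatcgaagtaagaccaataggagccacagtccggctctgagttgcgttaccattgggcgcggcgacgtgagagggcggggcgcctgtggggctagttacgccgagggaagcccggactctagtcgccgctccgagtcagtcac
The CArG box was searched on both strands. It was found in 1.63% of 32851 such windows, counted singly. By gene, it was found in at least 1 window of 7 of the 23 contractile SRF targets that had one. These were Actg1, Cnn2, Fhl1, Fhl2, Myl9, Srf and Vcl, with 2 matches in Srf and 1 in Vcl. Myl9, Srf and Vcl were called, and Actg1, Cnn2, Fhl1 and Fhl2 were not. Acta2, also called, was not among the 7. A match is a description of the sequence. Vcl (vinculin) read 297, 307, 291, 289 and 234 CPM on NT and 314 to 355 CPM (median 325) on HF, a rise of 0.21 ± 0.05 (SE, adjusted p = 0.0228). The groups did not overlap, exons of another gene overlap 25.5% of Vcl, and the call was lost without HF 4 (adjusted p then 0.0578) and with only NT and HF in the fit (adjusted p = 0.0557). Srf rose by 0.17 ± 0.04 (SE, adjusted p = 0.0311) and missed the threshold without any 1 of NT 2, NT 3, HF 4 or HF 6 (then adjusted p 0.0796 to 0.106). Acta2 (smooth muscle actin) stood at 253, 287, 202, 266 and 296 CPM on NT and 309 to 418 CPM (median 363) on HF, a rise of 0.48 ± 0.10 (SE, adjusted p = 0.0171). All HF libraries exceeded NT, and the call ended only when NT and HF were fitted alone (adjusted p = 0.0749). Acta2 is also 1 of 5 tested markers of mesangium, pericytes and smooth muscle, whose summed level was 743, 776, 680.1, 766 and 755 CPM in NT and 808 to 887 CPM (median 849.6) in HF. Pdgfrb, a receptor of mesangial cells and pericytes, stood at a mean of 478 CPM on both surfaces, and Gata3 at 4.02 CPM on NT and 5.08 CPM on HF, neither of them called. Ren1 had no count in any NT or HF library, while Itga8 and Cspg4 had 0 to 5 each. The choice of these markers came after their values were seen. A part of such cells in the result was not tested. Myl9, a myosin light chain, rose by 0.73 ± 0.18 (SE, adjusted p = 0.0262) and missed the threshold without any 1 of NT 2, NT 3, NT 4, HF 1, HF 3 or HF 4 (then adjusted p 0.0631 to 0.0979).

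Itga5, the fibronectin receptor subunit, rose by 0.16 ± 0.04 (SE, adjusted p = 0.0190), and Bcar1 (p130Cas, a stretch-sensitive adaptor) by 0.15 ± 0.04 (SE, adjusted p = 0.0226). Itga5 missed the threshold without NT 3, HF 1 or HF 5 (adjusted p then 0.0654, 0.0560 and 0.0563) and Bcar1 without any 1 of NT 1, NT 2, NT 3, HF 3 or HF 4 (then adjusted p 0.0507 to 0.0805). The adaptors Lims1 and Lims2 changed by 0.12 ± 0.03 (SE, adjusted p = 0.0448) and 0.47 ± 0.13 (SE, adjusted p = 0.0432). Lims1, chosen after its values were seen, missed the threshold without any 1 of NT 3, NT 4, NT 5, HF 1, HF 2, HF 3, HF 4 or HF 5 (then adjusted p 0.0557 to 0.0992). Lims2 missed the threshold without any 1 of NT 2, NT 3, NT 4, NT 5, HF 1, HF 2, HF 3 or HF 4 (then adjusted p 0.0501 to 0.140). Among YAP and TAZ targets, genes that follow cell spreading and tension, 4 of 24 rose and 0 fell. Tgfb2, already counted among the TGF-beta ligands, is 1 of the 4. F3 (tissue factor) rose by 0.22 ± 0.05 (SE, adjusted p = 0.00885), a call lost without NT 3 (adjusted p then 0.0518), and Ccdc80, a matrix protein, by 0.24 ± 0.05 (SE, adjusted p = 0.00927). Of 10 caveolae genes 2 fell and 0 rose. Cav1, the main coat protein of caveolae, the small flask-shaped pits of the plasma membrane, fell from 253, 260.2, 256, 254 and 242 CPM to 215 to 239.9 CPM (median 219), or -0.18 ± 0.03 (SE, adjusted p = 0.00120). No HF library reached the NT range. Cav2, its partner, fell by 0.16 ± 0.04 (SE, adjusted p = 0.0149), which missed the threshold without NT 3 (adjusted p then 0.0602). Sh3gl1 (endophilin A2, which bends membrane in endocytosis) rose by 0.17 ± 0.03 (SE, adjusted p = 0.00303) without overlap. Of 9 cadherins 2 fell, Cdh11 at -0.14 ± 0.04 (SE, adjusted p = 0.0397) and Cdh2 (N-cadherin) at -0.13 ± 0.04 (SE, adjusted p = 0.0417). Cdh11 missed the threshold without any 1 of NT 1, NT 2, NT 3, NT 4, HF 1, HF 3, HF 4 or HF 5 (then adjusted p 0.0686 to 0.119), and Cdh2 without any 1 of NT 1, NT 2, NT 3, NT 4, HF 1, HF 4 or HF 5 (then adjusted p 0.0695 to 0.111). Piezo1, a stretch-gated ion channel, rose by 0.16 ± 0.04 (SE, adjusted p = 0.0397) and missed the threshold without any 1 of NT 2, NT 3, NT 4, NT 5, HF 1, HF 3, HF 4 or HF 6 (then adjusted p 0.0538 to 0.108), and exons of another gene overlap 24.6% of it.

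Most interferon response genes read lower on HF than on NT, and few of them passed the test. Interferons induce families of GTPases that attack intracellular pathogens, and interferon gamma also raises antigen presentation. Of 56 tested 8 fell and 0 rose, 51 had a negative log2 change, and the median was -0.22. The 14 GTPases were all negative, with a median of -0.31, and 5 were called. The promoters of Tgtp1 and Irgm2 are shown in the same way, with a GAS match (TTCNNNGAA) and an ISRE match (GAAANNGAAA) in capitals, each searched on both strands.
Tgtp1, chr11:48992197-48992496, minus strand: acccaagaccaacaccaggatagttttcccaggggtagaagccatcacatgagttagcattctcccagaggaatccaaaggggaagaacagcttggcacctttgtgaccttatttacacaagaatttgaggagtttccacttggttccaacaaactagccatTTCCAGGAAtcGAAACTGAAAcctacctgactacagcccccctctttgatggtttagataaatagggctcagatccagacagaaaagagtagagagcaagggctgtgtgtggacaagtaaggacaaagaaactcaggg
Irgm2, chr11:58214727-58215026, plus strand: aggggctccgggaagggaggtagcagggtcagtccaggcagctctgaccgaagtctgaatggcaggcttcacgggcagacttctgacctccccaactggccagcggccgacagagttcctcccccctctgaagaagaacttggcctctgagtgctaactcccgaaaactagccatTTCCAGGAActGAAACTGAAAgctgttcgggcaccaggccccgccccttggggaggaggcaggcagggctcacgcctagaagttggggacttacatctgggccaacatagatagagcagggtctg
In both windows the same 9 letters of the GAS stand just before the same 10 letters of the ISRE, at positions -88 and -77 from the annotated start in Tgtp1 and -75 and -64 in Irgm2. Of the 14 GTPases 10 had a window, 9 of these held an ISRE match and 6 a GAS match. A gene counted as matched when any of its windows held a match. Over 32851 windows, counted singly and not by gene, the shares were 3.44% and 8.3%.

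Tgtp1 read 51.5, 59.1, 67.2, 66.3 and 65.6 CPM on NT and 40.4 to 47.8 CPM (median 42.7) on HF, a log2 change of -0.53 ± 0.06 (SE, adjusted p = 6.34e-06). Its near copy Tgtp2 went from 32.0, 39.7, 36.6, 33.9 and 44.1 CPM to 25.8 to 30.5 CPM (median 28.7), or -0.39 ± 0.07 (SE, adjusted p = 0.00265). HF lay below NT in both, but they share 83.3% and 80.4% of their windows with another gene, so counts may be split between them. Gbp9, a guanylate-binding protein, fell from 94.7, 114, 133, 121 and 121 CPM to 89.2 to 97.6 CPM (median 94.5), or -0.32 ± 0.05 (SE, adjusted p = 0.00164), and NT 1 lay within the HF range. Irgm1 and Irgm2 changed by -0.16 ± 0.04 (SE, adjusted p = 0.0487) and -0.26 ± 0.07 (SE, adjusted p = 0.0399). Irgm1 missed the threshold without any 1 of NT 3, NT 4, NT 5, HF 1, HF 2, HF 3, HF 4 or HF 5 (then adjusted p 0.0558 to 0.123), and Irgm2 without any 1 of NT 2, NT 3, NT 4, NT 5, HF 1, HF 3 or HF 4 (then adjusted p 0.0574 to 0.104). Zbp1, a sensor of Z-form nucleic acids, fell by 0.65 ± 0.16 (SE, adjusted p = 0.0201) and missed the threshold without NT 5 or HF 4 (adjusted p then 0.0769 and 0.0623). Usp18, which restrains interferon receptor signalling, fell by 0.57 ± 0.14 (SE, adjusted p = 0.0218) and missed the threshold without HF 3 or HF 4 (adjusted p then 0.0513 and 0.0652). Dtx3l, an interferon-induced ubiquitin ligase, at -0.27 ± 0.07 (SE, adjusted p = 0.0234), missed the threshold without any 1 of NT 2, NT 3, HF 3 or HF 4 (then adjusted p 0.0703 to 0.0880). Irgm1, Irgm2 and Dtx3l were chosen after their values were seen.

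In this group the NT libraries differed among themselves. The summed level of the 14 GTPases was 626, 762, 825, 781 and 898 CPM in NT 1 to NT 5 and 590.1 to 669 CPM (median 644) in HF. NT 1 thus lay within the HF range, NT 5 was the highest, and the other 3 NT libraries lay above all HF libraries. The number of the 56 genes called was 18 without NT 1, 5 without NT 3, 4 without HF 3 and 3 without HF 4. It was 14 without both NT 1 and NT 5, a setting chosen after the data were seen. In antigen presentation NT 1 was again the lowest NT library, while NT 5 was not the highest, and 3 of 27 genes fell and 0 rose. The 9 class II genes summed to 109, 173, 184, 178 and 177 CPM in NT and 125 to 139 CPM (median 132) in HF, so that NT 1 lay below every HF library and the other 4 above. H2-Aa, a class II chain, read 12.8, 21.5, 24.7, 25.3 and 22.0 CPM on NT and 12.8 to 17.2 CPM (median 14.2) on HF, a change of -0.55 ± 0.14 (SE, adjusted p = 0.0404), and missed the threshold without any 1 of NT 2, NT 3, NT 4, NT 5, HF 1, HF 2, HF 3, HF 4 or HF 6 (then adjusted p 0.0661 to 0.114). H2-DMb1, which loads class II peptides, fell by 0.25 ± 0.06 (SE, adjusted p = 0.0164) and missed the threshold without NT 2, NT 3 or NT 4 (adjusted p then 0.0555, 0.0528 and 0.0650), and 13.7% of its windows occur in other genes. H2-M3, a nonclassical class I molecule, fell by 0.29 ± 0.08 (SE, adjusted p = 0.0351) and missed the threshold without any 1 of NT 2, NT 3, NT 4, HF 1, HF 2, HF 4 or HF 6 (then adjusted p 0.0523 to 0.129). What sets NT 1 and NT 5 apart was not tested.

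**Figure D5:**
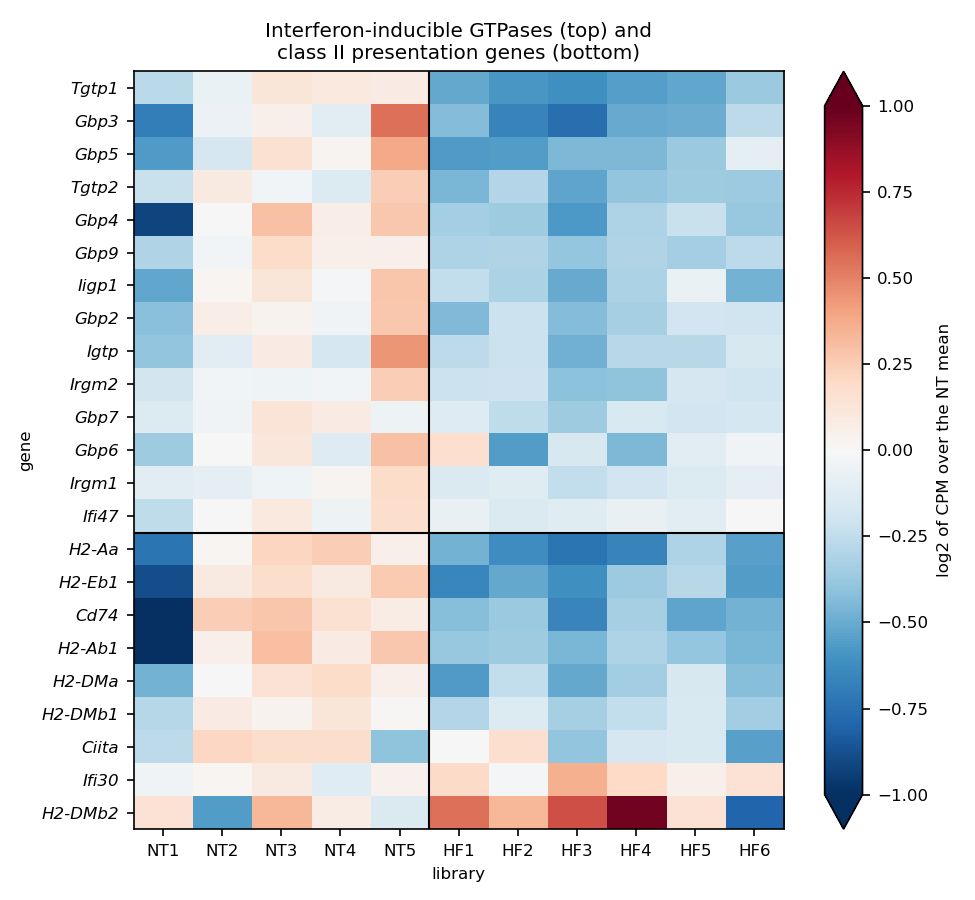
Log2 of CPM over the NT mean, by library, for the 14 interferon-inducible GTPases (top) and the 9 class II presentation genes (bottom), with blue for lower and red for higher and colours held constant beyond the ends of the scale. The HF columns are mostly blue in the upper block, the NT 1 column is blue in both blocks, and Ifi30 and H2-DMb2 at the bottom are mostly red on HF.

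Osmr, Il6st and Cish fell, and the chemokines Ccl7 and Ppbp rose. Oncostatin M signals through its receptor Osmr and the shared chain gp130, encoded by Il6st, to STAT factors. Osmr fell from 389.6, 344, 384, 386 and 343 CPM to 281 to 338 CPM (median 330.0), or -0.20 ± 0.04 (SE, adjusted p = 0.00666), and all HF libraries lay below NT. Il6st, chosen after its values were seen, changed by -0.15 ± 0.04 (SE, adjusted p = 0.0410) and missed the threshold without any 1 of NT 1, NT 2, NT 4, HF 1, HF 3, HF 4 or HF 5 (then adjusted p 0.0740 to 0.136). Cish, a feedback inhibitor induced by STAT5, read 125, 117, 118, 128 and 117 CPM on NT and 102 to 108 CPM (median 107) on HF, a log2 change of -0.20 ± 0.03 (SE, adjusted p = 0.000761) without overlap. Exons of another gene overlap 11.5% of Cish. Its window holds 2 GAS matches side by side at the annotated start, in capitals.
Cish, chr9:107296409-107296708, plus strand: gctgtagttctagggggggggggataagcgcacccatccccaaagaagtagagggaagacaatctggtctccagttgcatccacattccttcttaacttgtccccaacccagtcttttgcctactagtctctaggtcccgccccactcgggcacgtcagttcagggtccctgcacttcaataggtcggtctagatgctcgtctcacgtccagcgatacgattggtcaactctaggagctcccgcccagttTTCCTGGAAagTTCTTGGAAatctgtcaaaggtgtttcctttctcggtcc
Of 13 chemokines 2 rose and 0 fell. Besides Ccl7 this was Ppbp, at 1.28 ± 0.28 (SE, adjusted p = 0.0197), whose call was lost without NT 2, NT 3 or NT 4 (adjusted p then 0.0547, 0.0677 and 0.0565). Tnfrsf12a, the receptor of the cytokine TWEAK, rose from 34.2, 38.3, 36.1, 35.3 and 42.7 CPM to 44.3 to 66.7 CPM (median 50.6), or 0.51 ± 0.09 (SE, adjusted p = 0.00333). Its HF libraries were all above NT.

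Cell cycle genes leaned upward, and the respiratory chain held 1 call. Of 36 mitosis genes 35 had a positive log2 change, with a median of 0.20, and 3 rose. Their summed level was 487, 524, 479.8, 477 and 544 CPM in NT 1 to NT 5 and 459.6 to 709 CPM (median 578) in HF. The groups overlapped, with HF 6 below every NT library and HF 3 the highest. Cenpe, a kinetochore motor, rose by 0.28 ± 0.07 (SE, adjusted p = 0.0224) and missed the threshold without NT 3, NT 4 or HF 3 (adjusted p then 0.0672, 0.0509 and 0.0834). Racgap1, of the cleavage furrow, changed by 0.27 ± 0.07 (SE, adjusted p = 0.0262) and missed the threshold without any 1 of NT 3, NT 4, HF 3 or HF 4 (then adjusted p 0.0557 to 0.0974). Of 44 replication genes 4 rose and 0 fell, among them Uhrf1, which maintains DNA methylation, at 0.35 ± 0.07 (SE, adjusted p = 0.00316). Ribosome and translation genes had 5 rises and 1 fall of 100 (6% called), beside 2.33% over all genes and 5.66% in the highest class. The respiratory chain had 1 fall of 85 (1.18%). That was mt-Nd6, at -0.22 ± 0.04 (SE, adjusted p = 0.000484), a mitochondrial gene for which these libraries do not separate reads by strand. Of 54 lysosome and autophagy genes 3 rose and 0 fell. Besides Hexa these were Tpp1, a lysosomal peptidase, at 0.14 ± 0.03 (SE, adjusted p = 0.0264), which missed the threshold without NT 5 or HF 5 (adjusted p then 0.0506 and 0.0633), and Atg9b, an autophagy protein, at 1.35 ± 0.29 (SE, adjusted p = 0.00999), with overlapping groups. Genes of the ATF4 pathway, which responds to amino acid and mitochondrial stress, split. Atf5 fell from 517, 499.6, 507, 539 and 592 CPM to 417 to 485 CPM (median 449.6), or -0.24 ± 0.04 (SE, adjusted p = 0.000474), and Aldh1l2, a mitochondrial folate enzyme, rose by 0.29 ± 0.05 (SE, adjusted p = 0.00137). Neither overlapped between the groups, and exons of another gene overlap 14.1% of Aldh1l2.

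Of 31 tubule transport genes 4 rose and 2 fell, beside 1.5% higher and 0.829% lower over all genes. Cyp2j5, a kidney cytochrome P450, rose by 1.60 ± 0.30 (SE, adjusted p = 0.00303), Slc20a2, a phosphate carrier, by 0.21 ± 0.05 (SE, adjusted p = 0.00885) and Ggt1, a brush border peptidase, by 0.95 ± 0.22 (SE, adjusted p = 0.0114). The groups overlapped for Cyp2j5 and Slc20a2 and not for Ggt1. Ggt1 did not pass with NT 1 and NT 5 both left out (adjusted p = 0.0590). Slc6a18, an amino acid carrier, went from 0.680, 1.90, 0.966, 0.471 and 0.521 CPM to 2.70 to 13.7 CPM (median 6.36), a rise of 3.07 ± 0.56 (SE, adjusted p = 0.00967), and all HF libraries lay above NT. By limma voom it did not pass (adjusted p = 0.103). Folh1 (glutamate carboxypeptidase II) fell from 12.2, 14.2, 14.1, 12.5 and 13.3 CPM to 8.29 to 10.1 CPM (median 8.52), or -0.59 ± 0.10 (SE, adjusted p = 0.000706). Kcnj16, a potassium channel of the distal tubule chosen after its values were seen, fell by 0.35 ± 0.09 (SE, adjusted p = 0.0298) and missed the threshold without any 1 of NT 2, NT 3, HF 2, HF 4, HF 5 or HF 6 (then adjusted p 0.0530 to 0.155). In Folh1 and Kcnj16 the HF libraries lay below NT. Havcr1 (kidney injury molecule 1), of the injury genes, changed by 2.44 ± 0.31 (SE, adjusted p = 0.000618).

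Of the 32 podocyte genes tested 1 rose and 2 fell, beside 1.5% higher and 0.829% lower over all genes. Pdpn (podoplanin) stood at 167, 178, 173, 183 and 174 CPM on NT and 148 to 158 CPM (median 154) on HF, a log2 change of -0.19 ± 0.03 (SE, adjusted p = 0.000972). No HF library reached the NT range. Wt1, the podocyte transcription factor, changed by -0.16 ± 0.04 (SE, adjusted p = 0.0113) with overlap. Actn4, an actin crosslinker, rose by 0.13 ± 0.03 (SE, adjusted p = 0.0285) and missed the threshold without any 1 of NT 3, NT 4, HF 1, HF 3 or HF 4 (then adjusted p 0.0699 to 0.0928). Nphs1 (nephrin) at 0.35 ± 0.15 (SE, adjusted p = 0.270), Podxl (podocalyxin) at -0.05 ± 0.04 (SE, adjusted p = 0.695) and Synpo (synaptopodin) at -0.10 ± 0.04 (SE, adjusted p = 0.200) did not pass. Synpo passed without NT 1 (adjusted p then 0.00767), and exons of another gene overlap 11.8% of Nphs1.

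The round relief gives a second reference for single genes. HF minus RT shares the HF libraries with HF minus NT, and 32 of 15196 genes were called in it (0.211%). Of the genes named here 5 were among them. Agt, at 60.2 ± 4.95 CPM (SD, n = 6) on RT, differed by 0.44 (adjusted p = 0.000651) between HF and RT. Edn1 stood at 29.2 ± 2.81 CPM (SD, n = 6) on RT and differed by 0.28 (adjusted p = 0.0482). For Hexa the RT level was 157 ± 5.56 CPM (SD, n = 6), and the difference 0.16 (adjusted p = 0.0334). Spp1 was at 1776 ± 142 CPM (SD, n = 6) on RT, a difference of 0.54 (adjusted p = 0.0252), and Ncam1 at 294 ± 2.58 CPM (SD, n = 6), a difference of -0.15 (adjusted p = 0.0109). In all 5 the RT mean lay nearer to NT than to HF. Dusp6 on RT was at 39.1 ± 2.68 CPM (SD, n = 6) and Tgtp1 at 39.8 ± 2.99 CPM (SD, n = 6), with differences from HF of -0.09 (adjusted p = 0.896) and 0.11 (adjusted p = 0.662) that did not pass.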

How the data were processed

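Poly-A RNA of 17 libraries was sequenced in pairs (150 bases) without strand. The authors deposited raw counts per gene, 56748 genes by Ensembl identifier. Per the submitters' processing notes HISAT2 2.0.5 and featureCounts 1.5.0-p3 were used with GRCm39, and the annotation, strand setting and filters are not given in the sources used here. Symbols came from GENCODE M21 and matched 52073 genes, while genes lacking a symbol carried 0.580% of all counts.

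Genes were kept by filterByExpr, scaled by TMM and tested with edgeR 4.0.16 (R 4.3.3), quasi-likelihood F test with robust estimation, 3 groups in 1 fit, two-sided, with Benjamini-Hochberg adjustment over all 15196 genes. CPM use TMM totals, standard errors are the log2 change over the square root of F, and groups do not overlap where every HF library lies above, or every one below, all NT libraries. Alternatives used DESeq2 1.42.0, limma 3.58.1 (voom), other filters, and each library left out. Some items are not reported here. The script was tested on simulated data. Members and lists were chosen with earlier results of these data known. Named were, per expression class, up to 6 rises and 6 falls of smallest p, up to 4 members of smallest p per list, and Nphs1, Synpo, Wt1 and Podxl. Lowest and highest library totals are 14.9 and 18.6 M counts (NT) and 16.2 and 17.8 M (HF).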

Additional observations from a re-analysis of the deposited data

Results flagged for a closer look

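For each named gene the NT and the HF libraries were searched for 1 library far from the rest, by Dixon's test at the 95% level, which chance alone meets in about 1 of 20 groups. It was met in 15 of 240 groups. On NT these were Cdsn in NT 1 (25.1 CPM) and Fn1 in NT 1 (3583 CPM), both high, and Hoxd8 (56.7 CPM) and Racgap1 (21.4 CPM) in NT 4, both low. In NT 3, Sema7a was low (28.1 CPM) and mt-Nd6 stood apart at 725 CPM. Sema5a (66.6 CPM) and Tgfa (5.28 CPM) were high in NT 2. In NT 5, Usp18 was high (16.7 CPM), and Vcl (234 CPM) and Tpp1 (182 CPM) were low. On HF these were Sh3bp4 in HF 2 (142 CPM, low), Zbp1 in HF 1 (5.90 CPM, high), Sema7a in HF 3 (52.6 CPM, high) and Sema3f in HF 6 (504 CPM, high).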

How the results depend on the processing

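Over 19 alternatives, 68 of 120 named genes kept their direction and side of the threshold in every one that gave a value, and no named gene reversed. Of the 354 genes called, 350 were also called by DESeq2 and 316 by limma voom. With only NT and HF in the fit 193 of them were called, and on leaving out 1 library 192 (NT 3) to 304 (NT 5 or HF 2). By limma voom the call was lost by 6 named genes, Lims2, H2-Aa, Slc6a18, Sema5a, Epha4 and Irgm1, and with only NT and HF by 35. Called, higher and lower numbered 564, 354 and 210 by DESeq2, 597, 391 and 206 with a filter of at least 1 count in any library, and 200, 128 and 72 with only NT and HF in the fit. From the lowest to the highest class the counts were 23, 121, 276 and 165 with the open filter, and with only NT and HF 42, 97 and 50 above the lowest class. DESeq2 gave 267 and 172 in the upper 2 classes. Interferon response calls numbered 16 by DESeq2, 21 with the open filter and 4 with only NT and HF, which also gave 5 guidance and 5 interstitial matrix calls.

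Leaving out 1 library gave 202 to 604 calls, 132 to 333 higher and 69 to 271 lower. By class these ranged from 9 to 17, 41 to 88, 92 to 271 and 56 to 232, and by list from 3 to 18 (interferon), 5 to 10 (guidance), 3 to 5 (ERK feedback) and 5 to 8 (interstitial matrix). Without both NT 1 and NT 5, chosen after the data were seen, 650 genes were called, 355 higher and 295 lower, 292 and 251 in the upper 2 classes and 14 of the interferon list, and 284 of the 354 were among them. The cause of these shifts was not tested.

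With the replicate block the counts were 637 called, 401 higher and 236 lower, by class 22, 120, 296 and 199, and 18 interferon genes. The mean of each group was subtracted from the log2 CPM of each gene, and the remaining deviations were correlated between libraries. For same-numbered NT and HF libraries these correlations were 0.00689 to 0.0865. Not every library correlated best with its own number, so the numbers were not taken as pairs. Without the block, the libraries numbered 1 to 5 gave 342 calls. In the lowest class the median standard error was 0.32 on the log2 scale, and no fit at another depth was made.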
